A study of Mus musculus with 12 samples.

Results

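Reactive astrocyte genes are described here in the ischemic mouse brain. The 10 genes Gfap, Vim, Nes, Aspg, S1pr3, Cd109, Fbln5, Ggta1, Srgn and Steap4 were chosen by name, as the rows of the count table that carry these symbols, out of 39756 genes in the table. RNA was sequenced from the hemispheres of 12 male C57BL/6J mice, 9 to 10 weeks old by the study's methods, divided into Sham, Vehicle and LJP groups of 4 mice. Sham mice had sham surgery. In the Vehicle and LJP groups the middle cerebral artery was blocked with a filament for 45 min and then reopened (tMCAO), so both groups carry the ischemia-reperfusion (I/R) injury. LJP mice received Laminaria japonica polysaccharide, a sulfated polysaccharide of brown kelp, by stomach, and Sham and Vehicle mice received saline. By the methods, dosing began 14 days before surgery and went on afterwards. The labels do not give the dose or the time of the sequenced mice. Of its 3 doses, the study's text takes 200 mg/kg forward to the work that followed, and it does not state a dose beside the sequencing.

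Astrocytes respond to injury by enlarging, by building more intermediate filament and by switching on a broad set of genes, a state called reactive. Around an infarct they form the glial border that walls off the lesion. Genes of this state have been sorted by injury model into a shared set, a set linked to inflammation (A1) and a set linked to ischemia (A2). Gfap, Vim, Aspg, S1pr3 and Steap4 belong to the shared set, Ggta1, Fbln5 and Srgn to A1 and Cd109 to A2, while Nes is a filament gene of progenitors that reactive astrocytes also express. Several of these genes are not particular to astrocytes. Vim and Fbln5 are also expressed in vessels and fibroblasts, and Srgn in blood cells.

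Total counts per mouse ranged from 17960353 to 22216315. The filter on low counts kept 17558 genes, with all 10 reactive astrocyte genes among them. Levels are given as CPM, counts scaled to the normalised library size, and differences as log2 fold changes from edgeR's quasi-likelihood test over all 12 mice, with p-values adjusted over all genes tested and called below 0.05. The value after ± is the standard error for a log2 fold change and the SD over mice for a level. Vehicle mice 1 and 2 stood apart from the other libraries. The first principal component of all genes carried 60.3% of the variance, and it placed these mice at 69.6 and 113, Vehicle mice 3 and 4 at 13.7 and 27.5, LJP mice from -15.2 to 20.7 and Sham mice from -56.7 to -51.7. The counts and medians of the 10 genes that rest on the Vehicle group are therefore also given without Vehicle mice 1 and 2, a choice made after seeing the data. The labels give all mice the same batch name. The 5 lung transcripts of a marker list, among them the airway gene Scgb1a1, summed to 8.85 to 13.5 CPM in Sham and Vehicle mice and to 0.358 to 0.669 CPM in LJP mice, and their part in the results was not tested.

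The promoters are shown for 3 genes that mark the range of the set, the abundant filament genes Gfap and Vim and the least abundant gene, Steap4, and because they hold the matches described below them. RefSeq promoter windows of GRCm38.p6 were matched for 9 of the 10 genes, with Cd109 unmatched. These genes had 11 windows, as Fbln5 and Srgn had 2 each. The shares of all promoters given below count windows, not genes. Each stretch runs 5′ to 3′ from 150 bases before the annotated start to 20 bases after it, with matched motif letters in capitals.
Gfap, chr11:102897181-102897350, minus strand: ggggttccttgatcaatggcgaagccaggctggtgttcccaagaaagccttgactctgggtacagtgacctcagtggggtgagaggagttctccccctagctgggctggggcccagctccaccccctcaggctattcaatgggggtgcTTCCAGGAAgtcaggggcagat
Vim, chr2:13574161-13574330, plus strand: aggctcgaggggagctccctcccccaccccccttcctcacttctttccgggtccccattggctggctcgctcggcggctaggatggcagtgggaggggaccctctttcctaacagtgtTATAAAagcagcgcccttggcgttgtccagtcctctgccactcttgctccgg
Steap4, chr5:7960322-7960491, plus strand: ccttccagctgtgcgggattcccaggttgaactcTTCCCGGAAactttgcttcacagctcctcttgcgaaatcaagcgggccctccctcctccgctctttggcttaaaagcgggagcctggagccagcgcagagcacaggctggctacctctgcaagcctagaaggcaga
The capitals in Gfap and Steap4 match the STAT motif TTCNNNGAA, and those in Vim match the TATA motif TATAAA. Both strands were searched for these motifs and for the AP-1 motif TGANTCA. In the 250 bases before the start, which were searched first, the STAT motif was found in 1 of the 9 matched genes (Steap4, first base at -116), against 7.02% of all 32851 promoters. The search was then widened to the whole window of 300 bases after the Gfap match across its start had been seen. This added Gfap (first base at -2), so 2 of the 9 genes held the motif against 8.3% of all promoters, and the count of 2 depends on that later choice. The TATA motif was found in Vim (first base at -32), Srgn (-98), Ggta1 (-220) and Steap4 (-215) with either window, against 12.4% and 13.6% of all promoters. The matches in Ggta1 and Steap4 were on the opposite strand, and that of Steap4 lies before the printed stretch. Counted by window in the whole 300 bases, 2 of the 11 windows held the STAT motif and 4 held the TATA motif. The AP-1 motif was found in none of the 9 with either window, against 6.75% and 7.81%. The matches are letters in these windows and no measure of binding.

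Genes of resting astrocytes were detected in every library. The summed level of 18 genes of resting astrocytes, among them the glutamate transporters Slc1a2 and Slc1a3 and the water channel Aqp4, was 7281.1 to 7667.5 CPM in Sham mice and 7301.3 to 7677.7 CPM in LJP mice. In the Vehicle group it was 5540.2, 6083.0, 7742.2 and 8023.3 CPM in mice 1 to 4, so mice 1 and 2 lay below all other mice. Of these 18 genes, 4 rose and 4 fell in Vehicle mice against Sham mice, where 22.7% of all genes rose and 17.3% fell. With Vehicle mice 1 and 2 left out, 10 rose and 3 fell, against 15.7% and 14% of all genes, so the balance depended on those mice. The smallest p-values of the list were those of Aldh1l1, a folate enzyme used as an astrocyte marker (log2 fold change 1.12 ± 0.11, edgeR adjusted p = 8.96e-05), and Sox9, an astrocyte transcription factor (0.74 ± 0.12). Slc1a2, the most abundant of the 18 by group mean, was among the 4 that fell (-0.76 ± 0.21, edgeR adjusted p = 0.0121). Its mean was 2982.9 ± 195 CPM in Sham mice, 1764.9 ± 650 in Vehicle mice and 2347.8 ± 133 in LJP mice. In hemisphere tissue, fewer cells of a type and less RNA per cell cannot be told apart.

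The first comparison asked how these genes differ after I/R injury. All 10 rose in Vehicle mice against Sham mice, where 22.7% of all genes tested rose, and their median log2 fold change was 3.28 against 0.00 over all genes. In 9 of the 10 every Vehicle mouse lay above every Sham mouse, against 20.7% of all genes. The exception was Steap4. Without Vehicle mice 1 and 2, 9 of the 10 were still called, against 15.7% of all genes, and the median was 2.27.

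Gfap (Entrez Gene 14580, chromosome 11 from 102887336 to 102897200 of GRCm38, minus strand) encodes the intermediate filament protein that defines astrocytes. Its level was 107, 155, 151 and 151 CPM in Sham mice 1 to 4, 1455.8, 2853.1, 1768.9 and 2186.6 CPM in Vehicle mice and 2111.9, 1236.0, 1909.4 and 1019.2 CPM in LJP mice. Every injured mouse lay far above every Sham mouse, while the Vehicle and LJP mice overlapped. The mean was 141 ± 22.7 CPM in Sham mice (SD, n = 4), 2066.1 ± 604 in Vehicle mice (SD, n = 4) and 1569.1 ± 524 in LJP mice (SD, n = 4). Gfap rose 14.6-fold in Vehicle mice (log2 fold change 3.87 ± 0.28, edgeR adjusted p = 1.54e-05). Per transcript length, it ranked 1834 among all genes in Sham mice, 46 in Vehicle mice and 60 in LJP mice.

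Vim (Entrez Gene 22352, chromosome 2 from 13574311 to 13582826, plus strand) encodes vimentin, which co-assembles with the Gfap protein. Its level was 37.6, 38, 38.5 and 40.3 CPM in Sham mice, 919, 2197.7, 578 and 849 CPM in Vehicle mice and 604, 409, 718 and 321 CPM in LJP mice. The Sham mice lay within 1.07-fold of each other, and Vehicle mouse 2 was 3.8-fold above Vehicle mouse 3. Vim had the highest fold change of the 10 genes, 29.4-fold (log2 fold change 4.88 ± 0.41, edgeR adjusted p = 4.65e-05), and its rank per transcript length was 3064 in Sham mice, 24 in Vehicle mice and 108 in LJP mice. Nes (Entrez Gene 18008, chromosome 3 from 87971093 to 87980451, plus strand) encodes nestin, a filament protein of neural progenitors. Its level was 18.3, 19.1, 18.3 and 20.5 CPM in Sham mice, 251, 252, 101 and 129 CPM in Vehicle mice and 91.9, 78.1, 117 and 66 CPM in LJP mice. Vehicle mice 1 and 2 were nearly equal and lay above the other 10 mice, and Nes rose 9.61-fold in the Vehicle group (log2 fold change 3.26 ± 0.29, edgeR adjusted p = 5.24e-05). With Vehicle mice 1 and 2 left out, Nes rose 5.99-fold and Vim 18.4-fold.

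**Figure D1:**
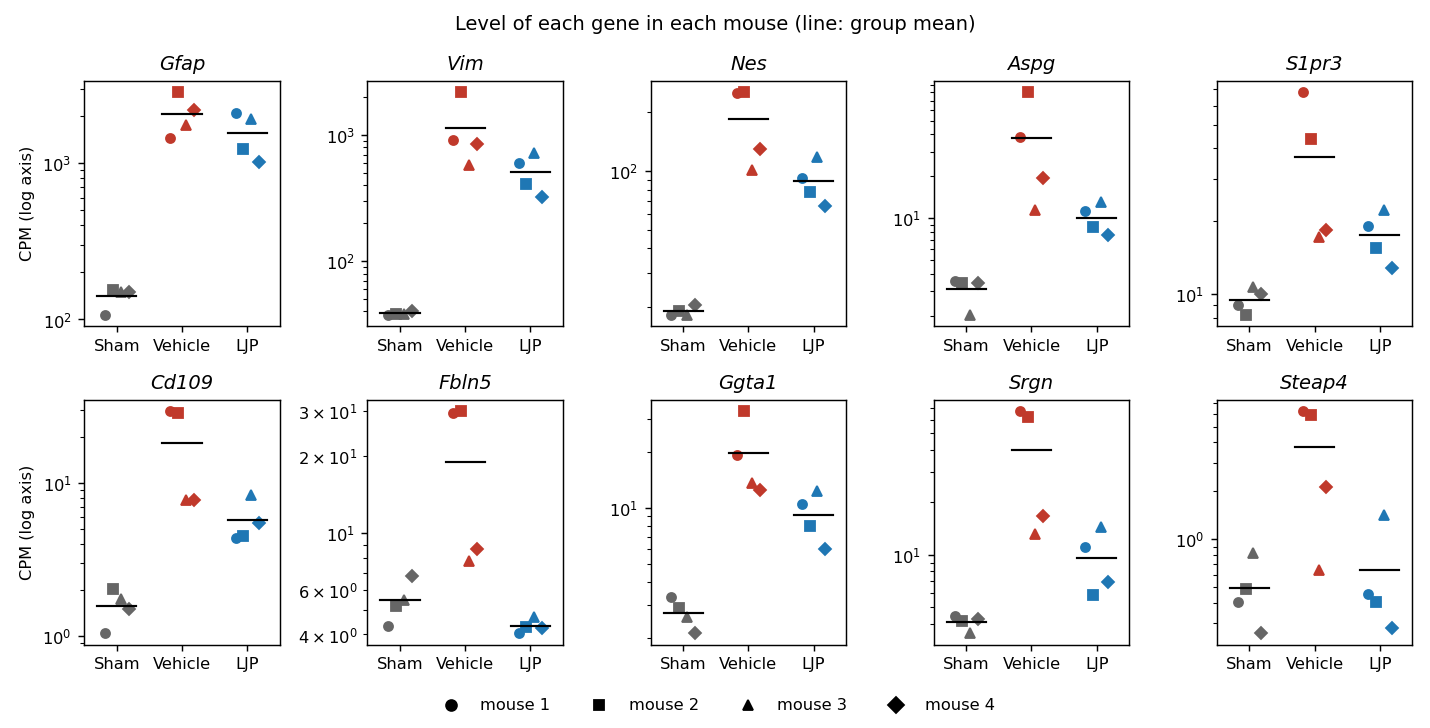
Level of each of the 10 genes in each mouse, in CPM on a log axis that differs between panels. Points are mice 1 to 4 of the Sham, Vehicle and LJP groups and lines are group means. In Gfap the injured mice sit at 1019.2 CPM or more and the Sham mice at 155 CPM or less, while in Fbln5 the LJP mice (4.04 to 4.68 CPM) sit beside the Sham mice.

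Aspg, Ggta1 and Steap4 encode enzymes. Aspg (chromosome 12 from 112106683 to 112127573, plus strand), an asparaginase, was at 3.58, 3.43, 2.03 and 3.42 CPM in Sham mice, 38.3, 80.4, 11.4 and 19.4 CPM in Vehicle mice and 11.3, 8.64, 13.1 and 7.58 CPM in LJP mice. It rose 12-fold in Vehicle mice (log2 fold change 3.59 ± 0.52, edgeR adjusted p = 0.000477), with a 7.05-fold range within that group. The log2 fold change was 2.88 without Vehicle mouse 2 and 2.30 without Vehicle mice 1 and 2. Ggta1 (chromosome 2 from 35400179 to 35464381, minus strand), which builds the alpha-galactose sugar epitope, was at 3.34, 2.89, 2.58 and 2.12 CPM in Sham mice, 19.2, 33.2, 13.6 and 12.4 CPM in Vehicle mice and 10.5, 7.98, 12.3 and 6.02 CPM in LJP mice. The 3 groups of Ggta1 did not overlap, and it rose 7.19-fold in Vehicle mice (log2 fold change 2.85 ± 0.33, edgeR adjusted p = 0.000151), or 4.74-fold with Vehicle mice 1 and 2 left out.

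Steap4 (chromosome 5 from 7960472 to 7982213, plus strand), a metalloreductase that reduces iron and copper, was the least abundant of the 10. Its raw counts were 7, 9, 15 and 5 in Sham mice, 139, 137, 12 and 39 in Vehicle mice and 10, 8, 26 and 5 in LJP mice, so single counts weigh on its values. Vehicle mouse 3, at 0.646 CPM, lay below Sham mouse 3 at 0.822 CPM. Steap4 rose in Vehicle mice (log2 fold change 2.92 ± 0.69, edgeR adjusted p = 0.0062). However, it lost its call when Vehicle mice 1 and 2 were left out (1.46, edgeR adjusted p = 0.0929).

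S1pr3 (chromosome 13 from 51408618 to 51422797, plus strand) encodes a receptor for sphingosine 1-phosphate, a lipid signal, and Cd109 (chromosome 9 from 78615546 to 78716260, plus strand) a membrane-anchored protein that binds TGF-beta. S1pr3 was at 9.05, 8.23, 10.7 and 10 CPM in Sham mice, 68.2, 43.7, 17.3 and 18.5 CPM in Vehicle mice and 19.2, 15.6, 22.2 and 12.8 CPM in LJP mice. It rose 3.89-fold in Vehicle mice (log2 fold change 1.96 ± 0.38, edgeR adjusted p = 0.00226), and by a log2 fold change of 0.91 without Vehicle mice 1 and 2 (edgeR adjusted p = 0.00145). The long noncoding gene Gm32834 overlaps S1pr3 on the opposite strand and held 5 to 15 counts per mouse. As the library kit does not mark strand, reads of the overlap cannot be assigned to either gene. Cd109 was at 1.04, 2.02, 1.75 and 1.5 CPM in Sham mice, 29.9, 28.7, 7.75 and 7.81 CPM in Vehicle mice and 4.41, 4.5, 8.43 and 5.52 CPM in LJP mice. It rose 11.7-fold in Vehicle mice (log2 fold change 3.55 ± 0.49, edgeR adjusted p = 0.000372), and 4.89-fold when Vehicle mice 1 and 2 were left out.

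Fbln5 (chromosome 12 from 101746565 to 101819119, minus strand) encodes fibulin-5, which helps to assemble elastic fibres, and Srgn (chromosome 10 from 62493833 to 62527445, minus strand) serglycin, a proteoglycan of secretory granules. Fbln5 was at 4.33, 5.18, 5.48 and 6.79 CPM in Sham mice, 29.5, 30.2, 7.75 and 8.62 CPM in Vehicle mice and 4.04, 4.29, 4.68 and 4.24 CPM in LJP mice. Its fold change in Vehicle mice was the lowest of the 10 (3.49-fold, log2 fold change 1.80 ± 0.40, edgeR adjusted p = 0.00437), and without Vehicle mice 1 and 2 it was 0.58 on the log2 scale (edgeR adjusted p = 0.0216). Srgn was at 4.44, 4.14, 3.51 and 4.25 CPM in Sham mice, 67.7, 62.6, 13.2 and 16.6 CPM in Vehicle mice and 11.1, 5.88, 14.5 and 6.91 CPM in LJP mice. It rose 9.81-fold in Vehicle mice (log2 fold change 3.29 ± 0.52, edgeR adjusted p = 0.000761), and 3.63-fold when Vehicle mice 1 and 2 were left out.

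The Vehicle mice were split in most of these genes. In 9 of the 10, the lower of Vehicle mice 1 and 2 exceeded the higher of Vehicle mice 3 and 4, and the exception was Gfap. The mean of mice 1 and 2 was 1.09 times that of mice 3 and 4 for Gfap, 2.18 times for Vim, 4.38 times for Srgn and 4.44 times for Steap4. Among LJP mice, mouse 3 was the highest in 9 of the 10 genes, with Gfap the exception.

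**Figure D2:**
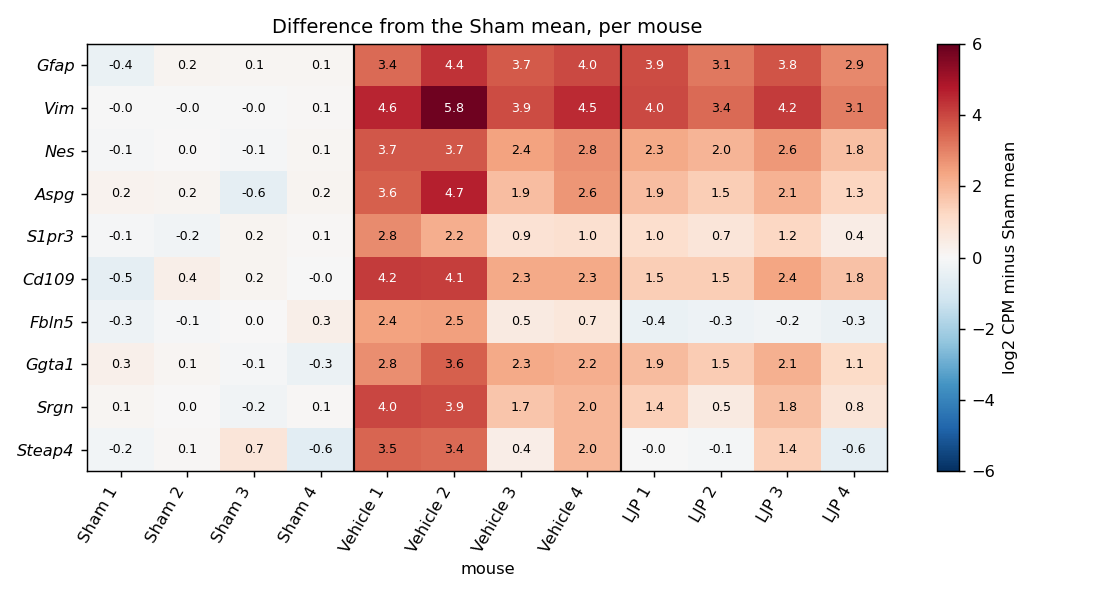
Log2 CPM of each gene in each mouse minus the mean of the Sham mice, with red above and blue below that mean. Columns are the 12 mice and vertical lines part the groups. Vehicle mice 1 and 2 have medians of 3.56 and 3.81 over the 10 genes, against 2.07 and 2.22 in Vehicle mice 3 and 4 and 1.21 to 2.11 in LJP mice.

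The second comparison asked whether treatment moved these genes after the same injury. None of the 10 was called between LJP and Vehicle mice by edgeR, with adjusted p-values from 0.0678 to 0.286, and only 0.0228% of all genes were called lower. That share was 4 genes, of which 3 were transcripts of the lung list, Scgb1a1, Sftpa1 and Sftpb. All 10 had a log2 fold change below 0, as did 50.2% of all genes, and their median was -1.43 against 0.00 over all genes. At an unadjusted p below 0.05, 9 of the 10 were lower in LJP mice, against 17.4% of all genes. DESeq2 called 8 of the 10 lower, against 9.48% of all genes, and left Gfap and Vim uncalled, and the thresholds of the study's methods on the edgeR fit also took 8, against 5.89% of all genes. Without Vehicle mice 1 and 2, none was called by edgeR, against 0.0443% of all genes called lower, and the median was -0.49. The call also turned on single mice, as 9 of the 10 were called lower by edgeR when Vehicle mouse 3 or Vehicle mouse 4 was left out, and none when any other mouse was. The share of all genes called lower moved as well, to 13.1% without Vehicle mouse 3 and 8.38% without Vehicle mouse 4.

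Gfap was at 0.759 of the Vehicle level in LJP mice (log2 fold change -0.40 ± 0.25, edgeR adjusted p = 0.286), and 2 of 4 LJP mice lay below all Vehicle mice. Vim was at 0.451 of the Vehicle level (log2 fold change -1.15 ± 0.35, edgeR adjusted p = 0.0764) and Nes at 0.482 (-1.05 ± 0.27, edgeR adjusted p = 0.0678). With Vehicle mice 1 and 2 left out, LJP mice were at 0.792 of the Vehicle level for Gfap (log2 fold change -0.34), 0.718 for Vim (-0.48) and 0.768 for Nes (-0.38). Whether the difference of Gfap departs from that of the other genes was not tested.

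Fbln5 and Ggta1 were the 2 genes in which every LJP mouse lay below every Vehicle mouse, as was so for 5.91% of all genes. Fbln5 was at 0.227 of the Vehicle level (log2 fold change -2.14 ± 0.41, edgeR adjusted p = 0.0678), and its LJP mice, with a mean of 4.31 ± 0.266 CPM (SD, n = 4), lay beside the Sham mice at 5.44 ± 1.02 (SD, n = 4). Ggta1 was at 0.468 of the Vehicle level (log2 fold change -1.09 ± 0.30, edgeR adjusted p = 0.0689). When Vehicle mice 1 and 2 were left out, the log2 fold changes were -0.93 for Fbln5 (edgeR adjusted p = 0.0958) and -0.50 for Ggta1 (edgeR adjusted p = 0.35).

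In the other genes LJP mice overlapped Vehicle mice 3 or 4. The log2 fold changes were -1.88 for Aspg, -1.08 for S1pr3, -1.70 for Cd109, -2.06 for Srgn and -2.55 for Steap4, with standard errors from 0.37 to 0.67. Without Vehicle mice 1 and 2, S1pr3 was at -0.04, Cd109 at -0.45 and Srgn at -0.63. All 5 values were thus closer to 0 once the mice that stood apart were left out, as Aspg was then at -0.60 and Steap4 at -1.11. Single mice also moved these 2 genes, Steap4 to -3.27 without LJP mouse 3 and Aspg to -1.19 without Vehicle mouse 2.

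**Figure D3:**
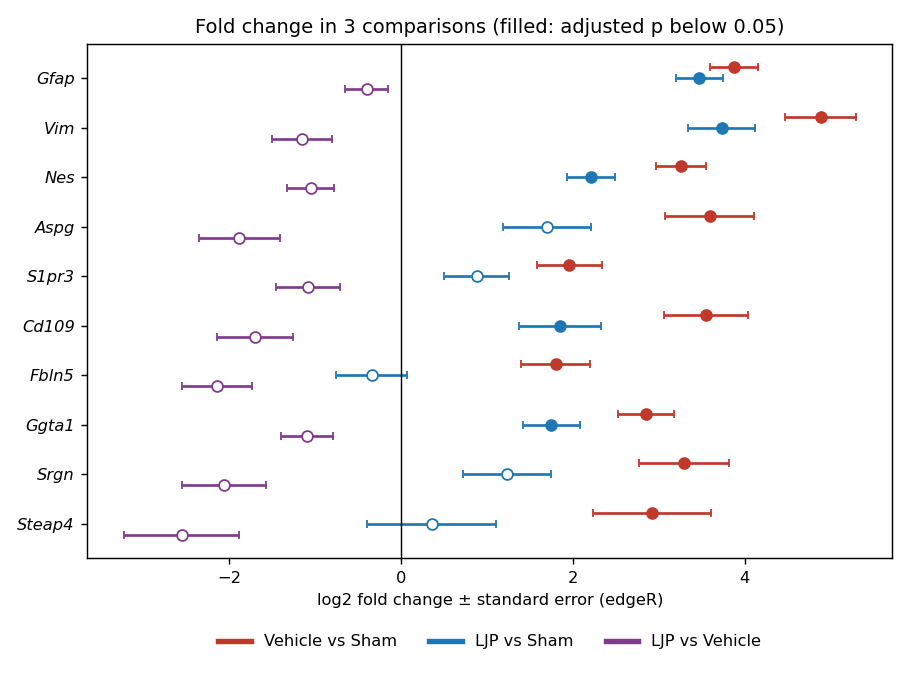
Log2 fold change of each gene in the 3 comparisons, with the standard error from edgeR. Filled points have an adjusted p below 0.05. All 10 points of Vehicle against Sham are filled, 5 of LJP against Sham and none of LJP against Vehicle.

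The third comparison asked which of these genes still differed from Sham in the treated mice. It shares the LJP mice with the second comparison and the Sham mice with the first, so it is no separate evidence for either. Gfap, Vim, Nes, Cd109 and Ggta1 rose in LJP mice, 5 of the 10 against 3.85% of all genes. DESeq2 called 6, these and Aspg (DESeq2 adjusted p = 0.0216), against 5.67% of all genes. In 8 of the 10 every LJP mouse lay above every Sham mouse, against 12.9% of all genes, and the exceptions were Fbln5 and Steap4. The median log2 fold change was 1.73 against 0.00 over all genes.

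Vim and Gfap had the highest fold changes here too, 13.3-fold higher (log2 fold change 3.73 ± 0.39, edgeR adjusted p = 0.000414) and 11.1-fold higher (3.47 ± 0.27, edgeR adjusted p = 6.04e-05). Nes rose 4.63-fold (log2 fold change 2.21 ± 0.28, edgeR adjusted p = 0.00116) and Ggta1 3.37-fold (1.75 ± 0.33, edgeR adjusted p = 0.00863). Cd109 was close to the threshold (log2 fold change 1.85 ± 0.48, edgeR adjusted p = 0.0486), and it lost its call when any 1 Sham or LJP mouse was left out (edgeR adjusted p = 0.068 to 0.159). Aspg (1.70, edgeR adjusted p = 0.0812, called without Vehicle mouse 2 or 3), S1pr3 (0.88, edgeR adjusted p = 0.229) and Srgn (1.23, edgeR adjusted p = 0.208) were not called, nor were Fbln5 (-0.34 ± 0.41, edgeR adjusted p = 0.717) and Steap4 (0.36 ± 0.75, edgeR adjusted p = 0.848). The direction of Steap4 turned on LJP mouse 3, as its log2 fold change was -0.36 without that mouse. As all groups share an estimate of the spread, leaving out Vehicle mice 1 and 2 also changed this comparison, and Aspg, S1pr3 and Srgn were then called, 8 of the 10 against 12.3% of all genes.

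To set Gfap against the astrocytes of the same library, its count was divided by the summed count of the 18 resting astrocyte genes. By group mean, Slc1a2 weighs most in that sum. The log2 fold change of Slc1a2 between LJP and Vehicle mice was 0.41 ± 0.21 (edgeR adjusted p = 0.194), and its part in the ratio was not tested. The log2 ratio was -6.14, -5.63, -5.66 and -5.59 in Sham mice, -1.93, -1.09, -2.13 and -1.88 in Vehicle mice and -1.86, -2.59, -1.94 and -2.88 in LJP mice. The injured groups lay above the Sham group without overlap, by 4.00 in Vehicle mice and 3.44 in LJP mice (two-sided exact permutation p = 0.0286 for each, the smallest that 4 against 4 mice allow). LJP and Vehicle mice overlapped, with a difference of -0.56 (two-sided exact permutation p = 0.229). With Aldh1l1 alone as the denominator, that difference was 0.01 (two-sided exact permutation p = 1), and the differences from Sham mice were 2.73 in Vehicle mice and 2.74 in LJP mice (two-sided exact permutation p = 0.0286 for each). Aldh1l1 itself had a log2 fold change of -0.43 ± 0.11 between LJP and Vehicle mice (edgeR adjusted p = 0.0678), beside -0.40 for Gfap. The difference of 0.01 therefore does not show that Gfap was unchanged per astrocyte.

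**Figure D4:**
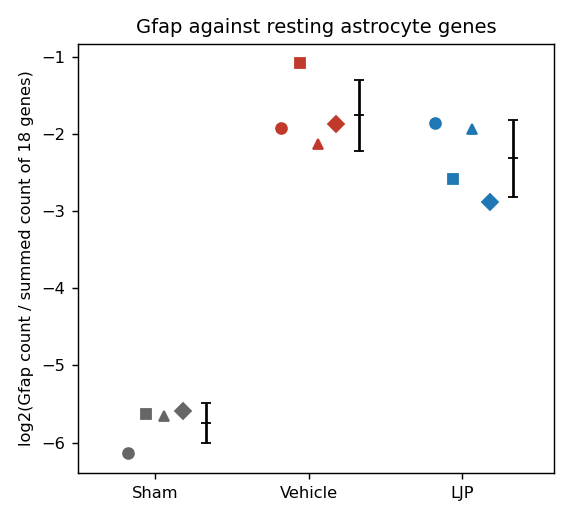
Log2 of the Gfap count over the summed count of 18 resting astrocyte genes in each mouse. Points are mice 1 to 4, and bars show the mean and SD of 4 mice. The group means are -5.75 in Sham, -1.76 in Vehicle and -2.32 in LJP mice.

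Other genes of the reactive state were counted from lists, and the genes named for a list are those with its smallest p-values, not its highest fold changes. Of 8 further genes of the shared set, 8 rose in Vehicle mice (median log2 fold change 4.21), where 22.7% of all genes rose. Among them were the protease inhibitor Serpina3n (5.71 ± 0.40) and the hyaluronan receptor Cd44 (4.82 ± 0.39). Of 9 further A1 genes, 8 rose (median 1.96), among them Ugt1a1, a glucuronidation enzyme (3.03 ± 0.36). Of 12 further A2 genes, 12 rose (median 3.65), among them the transglutaminase Tgm1 (255-fold). Without Vehicle mice 1 and 2, 8, 7 and 11 of these genes rose, against 15.7% of all genes, with medians of 3.18, 1.06 and 2.20. Between LJP and Vehicle mice edgeR called none of them, with 7, 7 and 10 lower at an unadjusted p below 0.05, against 17.4% of all genes, while DESeq2 called 7, 5 and 8 lower, against 9.48% of all genes. Their list medians there were -1.39, -0.90 and -1.24, or -0.50, -0.21 and -0.29 without Vehicle mice 1 and 2. In LJP mice against Sham mice 6, 3 and 6 of them rose, against 3.85% of all genes, and 8, 7 and 11 without Vehicle mice 1 and 2, against 12.3% of all genes.

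Partners of the 10 genes were counted in the same way, beside the 22.7% of all genes that rose in Vehicle mice. Of 14 tested genes of gp130 and STAT3 signalling, the cytokine pathway that acts on Gfap in astrocytes, 9 rose in Vehicle mice. The smallest p-values were those of the ligand Clcf1 (log2 fold change 3.85 ± 0.43) and the receptor Osmr (12.2-fold). Socs3, the feedback inhibitor of this pathway, had the smallest p of the list between LJP and Vehicle mice (-2.62 ± 0.54, edgeR adjusted p = 0.0678). Of 7 filament partners 5 rose in Vehicle mice, with the smallest p-values for the lamins Lmnb1 (2.48-fold) and Lmna (2.53-fold). Of 10 sphingosine 1-phosphate genes 4 rose, with the smallest p-values for the lyase Sgpl1 (2.83-fold) and the kinase Sphk1 (5.47-fold). Of 9 elastic fibre genes 7 rose, with the smallest p-values for Efemp2 (4.68-fold) and Loxl1 (7.99-fold), and of the 3 other Steap genes 1 rose, Steap3 (2.83-fold). With Vehicle mice 1 and 2 left out, 7 of the gp130 and STAT3 genes, 3 filament partners, 4 sphingosine 1-phosphate genes, 8 elastic fibre genes and 1 Steap gene rose, against 15.7% of all genes, and 1 elastic fibre gene fell. Between LJP and Vehicle mice edgeR called none of these partners, with or without Vehicle mice 1 and 2. In the order above, the list medians of the log2 fold change there were -0.62, -0.60, -0.17, -1.75 and -0.91. Without Vehicle mice 1 and 2 these medians were -0.09, -0.20, -0.08, -0.58 and -0.56. DESeq2 called 5 of the gp130 and STAT3 genes, 2 filament partners, 2 sphingosine 1-phosphate genes, 7 elastic fibre genes and 3 Steap genes lower, against 9.48% of all genes, and 7, 3, 3, 7 and 3 were lower at an unadjusted p below 0.05 in edgeR, against 17.4% of all genes. Some genes, such as Sphk1, Osmr and Clcf1, stand in more than 1 list.

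Markers of other cell types also differed between the mice. The summed level of 8 endothelial markers was 231 to 255 CPM in Sham mice, 719, 1528.1, 329 and 387 CPM in Vehicle mice 1 to 4 and 229 to 295 CPM in LJP mice, so mice 1 and 2 were again the highest. The sum of 8 pericyte and fibroblast markers was 173 to 187 CPM in Sham mice, 239, 1177.2, 251 and 301 CPM in Vehicle mice and 164 to 231 CPM in LJP mice, so here Vehicle mouse 2 alone stood apart and mouse 1 was the lowest of its group. Of these markers, 6 of 8 endothelial and 6 of 8 pericyte and fibroblast genes rose in Vehicle mice, against 22.7% of all genes, and 5 and 6 without Vehicle mice 1 and 2, against 15.7% of all genes. Between LJP and Vehicle mice the median log2 fold changes of these lists were -1.45 and -1.74, beside -1.43 for the 10 genes, and edgeR called none of their genes while DESeq2 called 7 and 5 lower, against 9.48% of all genes. When Vehicle mice 1 and 2 were left out, the medians were -0.61 and -0.75, beside -0.49 for the 10 genes, and edgeR called 0 endothelial markers and 2 of the pericyte and fibroblast list lower, against 0.0443% of all genes. These were the collagen genes Col1a1 (log2 fold change -1.34 ± 0.20, edgeR adjusted p = 0.024) and Col1a2 (-1.04 ± 0.15, edgeR adjusted p = 0.0188). The sum of 8 neutrophil markers was 5.19 to 6.63 CPM in Sham mice, 213, 78.5, 18.2 and 29.9 CPM in Vehicle mice and 10.1 to 22.3 CPM in LJP mice, and only Csf3r of this list had enough counts to be tested (log2 fold change 2.46 in Vehicle mice). The part of vessel, fibroblast and blood cells in the differences of Vim, Fbln5, Srgn and the other genes was not tested.

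Microglia and macrophage markers followed another order. Their sum was 210 to 217 CPM in Sham mice, 461, 659, 599 and 635 CPM in Vehicle mice and 627, 365, 629 and 361 CPM in LJP mice, so Vehicle mice 1 and 2 did not stand apart together, and 7 of 8 rose in Vehicle mice, against 22.7% of all genes. The sum of 8 neuron markers was 6892.1 to 7686.9 CPM in Sham mice, 5442.3, 4223.0, 6664.5 and 6390.2 CPM in Vehicle mice and 6387.3 to 7521.6 CPM in LJP mice, and 4 of 8 fell in Vehicle mice, against 17.3% of all genes, or 5 without Vehicle mice 1 and 2, against 14% of all genes. Of 6 progenitor markers 2 rose, Mki67 and Pdgfra, and of 6 oligodendrocyte markers 1 rose, Mobp, against 22.7% of all genes, or 4 and 0 without Vehicle mice 1 and 2, where 15.7% of all genes rose. Between LJP and Vehicle mice the median log2 fold change was -0.13 for the microglia and macrophage list and 0.28 for the neuron list. It was 0.09 for the progenitor list, -0.15 for the oligodendrocyte list and 0.03 for the resting astrocyte genes.

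**Figure D5:**
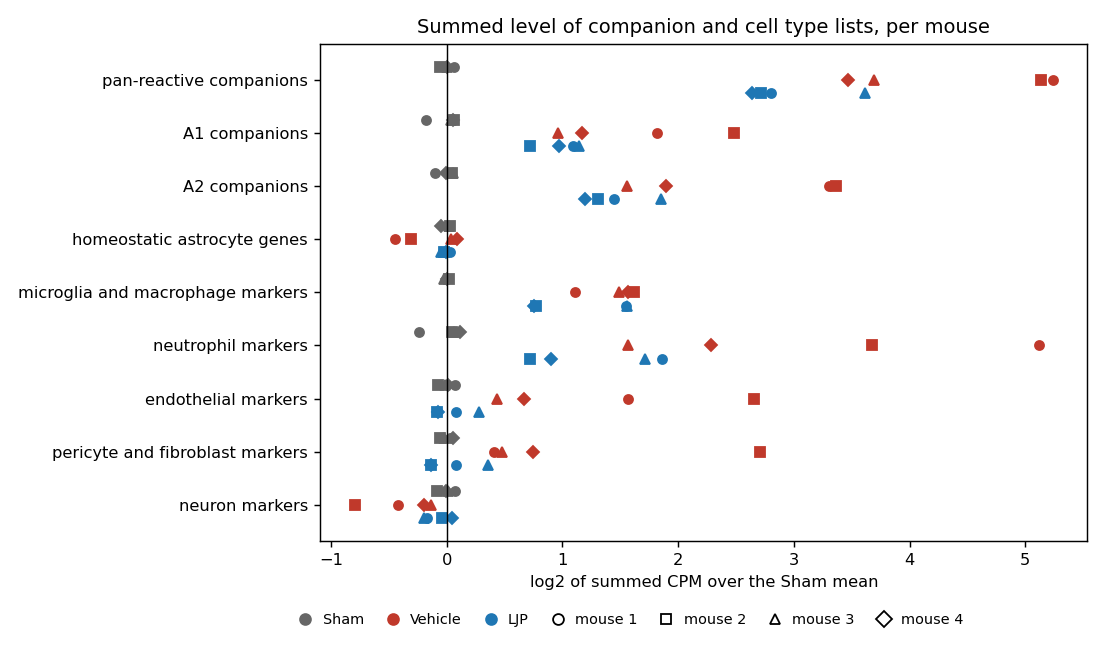
Log2 of the summed CPM of each list over its Sham mean, per mouse, with group by colour and mouse number by shape. Vehicle mice 1 and 2 lie to the right in the reactive, endothelial and neutrophil lists and to the left in the resting astrocyte and neuron lists.

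The genes outside the 10 whose pattern was most like that of Gfap were sought among all genes tested, by the root mean square difference of log2 CPM over the 12 mice, each gene centred on its own Sham mean. The closest were Cd68 (0.286), Tlr2 (0.296), Milr1 (0.314), C3ar1 (0.407) and Siglec1 (0.41). Tlr2, Milr1 and Siglec1 were low in Sham mice, with means of 0.683, 0.123 and 0.641 CPM. At such levels the prior count of 2 weighs on log2 CPM and so on the likeness. Cd68 is a lysosomal protein of phagocytes, Tlr2 a receptor for microbial lipids and C3ar1 a receptor of complement. Cd68, with a mean of 5.79 CPM in Sham, 70.8 in Vehicle and 56.6 in LJP mice, had log2 fold changes of 3.61 in Vehicle mice and 3.29 in LJP mice against Sham. Among the 10 themselves, Vim was the closest to Gfap (0.603) and Fbln5 the farthest (2.61).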

How the data were processed

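Poly(A) RNA of brain hemispheres from 12 mice was made into libraries with a kit that does not mark strand. The authors deposited raw counts per gene and mouse, with gene lengths and positions. The submitters' processing notes name featureCounts, DESeq2, GRCm39 and mm10. Positions in the table match GRCm38. The aligner, strand setting and handling of shared reads are not given in the sources used here. Groups and replicate numbers came from the labels, which name the mice separately.

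The test was edgeR 4.0.16 (R 4.3.3), on 17558 genes kept by filterByExpr, with TMM scaling and a quasi-likelihood fit of the 3 groups over all 12 mice. Adjustment followed Benjamini and Hochberg, with calls below 0.05. DESeq2 1.42.0 and the thresholds of the study's methods (absolute log2 fold change over 0.58, unadjusted p below 0.01) were alternatives, with RLE scaling, library size only, no filter, a fit of 2 groups, a replicate block and leaving out each mouse. Log2 CPM used a prior count of 2. Ranks per length used CPM over gene length. Total counts were 17960353 to 22216315 per mouse. Mice of a group differed by more than sampling noise (chi-square per degree of freedom at least 2.48). The test was checked on simulated counts. Permutation tests used scipy 1.17.1, plots matplotlib 3.10.9.

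The 10 genes and the lists were chosen with earlier results of these data known. Named genes are the 10, the 2 with the smallest p in each list in Vehicle against Sham or LJP against Vehicle (not all are printed), the 5 most like Gfap, and genes overlapping the 10; others named stand as examples of a list. The motif window was widened from 250 to 300 bases after the first result was seen, and both counts are given. No gene set test was run.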

Additional observations from a re-analysis of the deposited data

Results flagged for a closer look

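Within each group of 4 mice, the highest and the lowest value of each of the 10 genes was compared with the nearest other mouse, as a share of the whole range of the group. Of 30 groups, 3 passed Dixon's critical value, where chance gives about 1.5. Gfap in Sham mouse 1 was the lowest of its group, with a share of 0.905 (107 CPM against 151 to 155 CPM). Aspg in Sham mouse 3 was the lowest of its group, with a share of 0.9 (2.03 CPM against 3.42 to 3.58 CPM). Steap4 in LJP mouse 3 was the highest of its group, with a share of 0.845 (1.41 CPM against 0.279 to 0.454 CPM, or 26 counts against 5 to 10).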

How the results depend on the processing

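The 10 calls in Vehicle against Sham were kept in count under each alternative run on all mice and with any 1 mouse left out (10 to 10 genes called). With 1 mouse left out, the median log2 fold change was 2.93 to 3.52 and the calls over all genes 5285 to 8200. Without Vehicle mice 1 and 2, left out after seeing the data, 9 were called and the median was 2.27. The thresholds of the study gave 3807 genes against 7014, and a fit of 2 groups 5234. For LJP against Vehicle, 0 of the 10 became 8 with DESeq2, 6 without the filter and 8 at the thresholds of the study, and the calls over all genes went from 4 to 2313, 593 and 1223, to 2 in a fit of 2 groups and to 8 without Vehicle mice 1 and 2, where the median was -0.49. With 1 mouse left out, 0 to 9 of the 10 were called (9 without Vehicle mouse 3 and 9 without Vehicle mouse 4, otherwise 0), with medians of -1.65 to -1.09 and 3 to 3857 genes in all. For LJP against Sham, 5 of the 10 became 8 in a fit of 2 groups and 8 without Vehicle mice 1 and 2, and 834 genes became 1458 with DESeq2, 4043 in a fit of 2 groups and 4389 without Vehicle mice 1 and 2. With 1 mouse left out, 4 to 6 of the 10 were called, with medians of 1.57 to 1.84 and 393 to 2357 genes. Cd109 was lost without any 1 Sham or LJP mouse (edgeR adjusted p = 0.068 to 0.159). Steap4 ranged from -0.36 (reversed, without LJP mouse 3) to 0.73 (without Sham mouse 3), and the filter removed it from the fit of LJP and Sham mice alone. The Gfap ratio was 3.78 to 4.12, -0.71 to -0.34 and 3.29 to 3.63 with 1 mouse left out. There 3 against 4 mice allow no exact p below 0.0571. With Aldh1l1 as the denominator it reversed to 0.01 for LJP against Vehicle, where Aldh1l1 itself had a log2 fold change of -0.43. The causes were not tested.

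Mice with the same number did not deviate together (correlations from -0.322 to 0.114), so the numbers gave no sign of pairing. With so few mice, the check cannot exclude it. With the replicate number as a block, 2 genes were called for LJP against Vehicle and 464 for LJP against Sham, and Cd109 lost its call there (log2 fold change 1.89, edgeR adjusted p = 0.0976). Library size alone moved the median of all genes by at most 0.08.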
